A study of Mus musculus with 44 samples.

Results

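The genes described here encode the machinery that moves new secretory and membrane proteins into the endoplasmic reticulum (ER), cuts off their signal peptide, attaches N-linked glycans and folds them. They are 39 genes given by symbol, and all 39 were found among the 50714 Ensembl gene identifiers shared by the count files. The rule names symbols and uses no measured value, though the list was drawn up with earlier results of these data known. By role, 8 belong to the signal recognition particle (SRP) and its receptor, 10 to the Sec61 channel and its partners, 5 to the signal peptidase, 9 to the oligosaccharyltransferase and 7 to the folding enzymes of the ER lumen and membrane. A signal peptide that leaves the ribosome is bound by SRP, which docks the ribosome at the SRP receptor, and the chain then enters the Sec61 channel. Signal peptidase cleaves it and the oligosaccharyltransferase glycosylates it during entry, and chaperones and disulfide isomerases fold it inside. Microglia, the resident macrophages of the brain, use this route for receptors, complement proteins, cytokines and lysosomal enzymes.

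The study measured RNA in dorsal cortex and hippocampus of mice at postnatal days 28 to 29. All mice carried CX3CR1-CreERT2, a Cre that tamoxifen activates and that the Cx3cr1 promoter drives in microglia and other macrophages, and a floxed RPL10a-GFP allele, so that ribosomes of recombined cells carry GFP. The genotype label reads CX3CR1-CreERT2 (+/-) x RPL10a-GFP flox (+/-), whereas the series' design line gives the RPL10a-GFP allele as fl/fl. Translating ribosome affinity purification (TRAP) isolates GFP-tagged ribosomes with the RNA on them. Tamoxifen mice received 100 mg/kg at postnatal days 15, 17 and 19, and control mice, which carry the same alleles, got vehicle per the labels but are called untreated in the design line. Each replicate letter has 4 libraries. Input stands for total RNA of the homogenized tissue, and MG_TRAP for RNA pulled down with GFP from such a homogenate. SN_input is RNA from synaptosomes, a preparation of detached nerve terminals with adhering fragments, and PeMP_TRAP is what the GFP pulldown took from it, meant to hold ribosomes of peripheral microglial processes. In the second set of libraries the corresponding fraction is called SN_TRAP. The sources used here do not say whether it was prepared in the same way, so values pooled over both sets, which are called PeMP_TRAP throughout, may join different preparations. Controls have 3 replicates (A to C), all in the first set, and tamoxifen mice have 8, with D to F in the first set and G to K in the second. The sources used here do not say whether a letter is 1 animal or a pool, or whether its 4 libraries share a homogenate, so p-values measure the spread between these libraries.

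Of the 7 folding genes, 5 share a promoter element, which is shown first as background. Hsp90b1 and Pdia6, the members called higher in PeMP_TRAP than in SN_input, carry it. Hspa5, Calr and Canx carry it too and were called in no comparison of fractions. Whether the element bears on the levels was not tested. The ER stress response element is read here as CCAAT, then 9 bases, then CCACG, on either strand, in the RefSeq window from 250 bases before to 50 bases after the start of a gene (GRCm38.p6). It was found in 39 of 32851 windows of all genes (0.119%). Of the 39 members, 31 had a window, and 5 of these held the element. All 5 are folding genes (5 of 7 with a window), and 0 of the other 24 members with a window held it. Ostc, Sec11c, Sec61a1, Spcs3, Srp19, Srp68, Ssr2 and Tram1 had no window. In the sequences that follow, given 5′ to 3′ on the strand of the gene, capitals mark the fixed letters of each match, and a match is a description of letters, not evidence of binding. The stretches are Hsp90b1 chr10:86705445-86705694 (minus strand), Pdia6 chr12:17266339-17266588 (plus), Hspa5 chr2:34772005-34772063 (plus), Calr chr8:84847055-84847113 (minus) and Canx chr11:50325780-50325838 (minus).
Hsp90b1: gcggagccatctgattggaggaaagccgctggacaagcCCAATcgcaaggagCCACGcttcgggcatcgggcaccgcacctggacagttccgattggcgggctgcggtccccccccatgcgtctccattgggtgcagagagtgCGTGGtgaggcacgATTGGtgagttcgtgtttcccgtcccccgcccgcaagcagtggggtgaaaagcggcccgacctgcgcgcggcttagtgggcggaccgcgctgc
Pdia6: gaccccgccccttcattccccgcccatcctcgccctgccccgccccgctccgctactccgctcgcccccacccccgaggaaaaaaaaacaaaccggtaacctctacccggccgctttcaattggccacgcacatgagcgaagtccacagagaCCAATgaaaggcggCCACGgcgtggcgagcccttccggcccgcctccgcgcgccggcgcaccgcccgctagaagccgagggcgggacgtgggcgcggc
Hspa5: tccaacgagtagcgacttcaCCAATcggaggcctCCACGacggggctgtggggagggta
Calr: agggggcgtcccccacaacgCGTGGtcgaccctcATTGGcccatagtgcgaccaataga
Canx: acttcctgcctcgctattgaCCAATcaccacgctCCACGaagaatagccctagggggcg
Hsp90b1 holds 2 matches, 1 in each orientation, at 212 to 194 and at 107 to 89 bases before the start. The single matches lie at 98 to 80 bases before the start in Pdia6, 65 to 47 in Hspa5, 162 to 144 in Calr and 145 to 127 in Canx, and the Calr match runs in the opposite orientation.

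**Figure D1:**
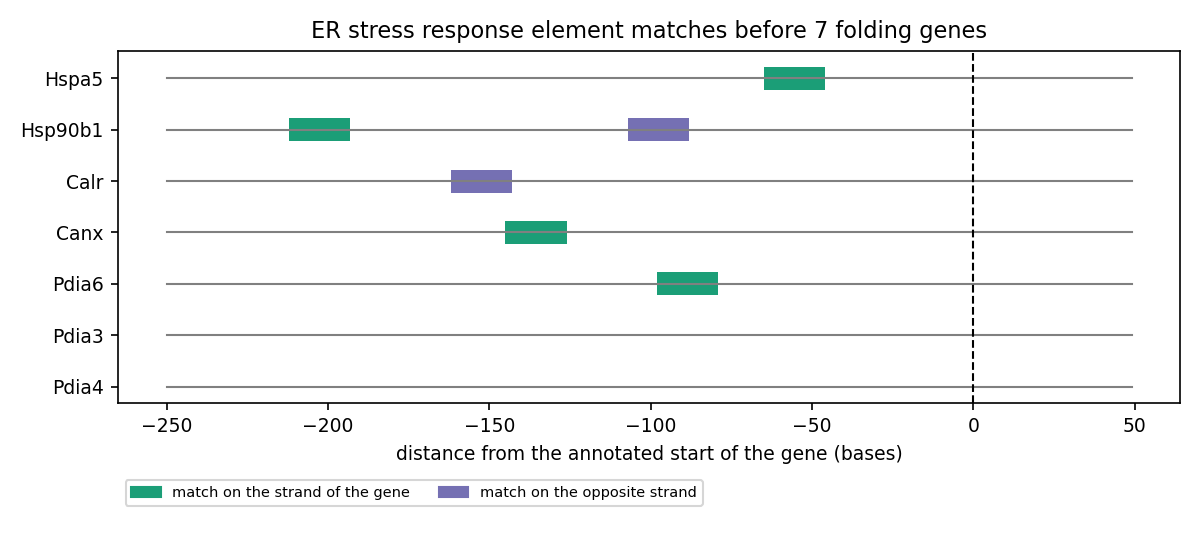
Matches to the ER stress response element (CCAAT, 9 bases, CCACG) in the promoter windows of the 7 folding genes, against the distance from the annotated start in bases; green boxes lie on the strand of the gene and purple boxes on the opposite strand. Hsp90b1 holds 2 matches, Hspa5, Calr, Canx and Pdia6 hold 1 each, and Pdia3 and Pdia4 hold 0.

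The libraries held between 740679 and 35427238 reads assigned to the shared genes, and a count of 0 still allows 3 counts, which is 0.0847 to 4.05 CPM (counts scaled to a common library total) depending on the library. Such intervals cover counting error only, since the reads carry no molecular identifiers. Levels are given as CPM on TMM-scaled library totals, and differences as log2 fold changes from edgeR's quasi-likelihood test over all genes, called at a Benjamini-Hochberg adjusted p under 0.05. The first set is uneven. Sec62 in Input stood at 175 CPM in control A, 1899 in B and 864 in C, and at 151 in tamoxifen D, 2428 in E and 3007 in F, against 123 to 135 in the 5 second-set Input libraries. Tmem258, Ost4, Sec61b, Srp19 and Dad1 also differed between first-set libraries of 1 group. Tmem258, for example, stood at 13.8 CPM in Input D and 150 in Input E. In second-set Input the same genes stayed close together, with Tmem258 between 32.2 and 42.5 CPM. In PeMP_TRAP tamoxifen libraries single members varied as much in the second set as in the first, with a median coefficient of variation of 86.8% and 87.1%. PeMP_TRAP libraries of the second set detected few genes for their depth. Of 14736 tested genes, 33.0% to 45.5% had a read there, against 69.3% to 76.2% in PeMP_TRAP tamoxifen libraries of the first set and 90.5% to 96.3% in second-set SN_input.

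Most of the machinery was detected in the PeMP_TRAP fraction. In each of the 3 first-set PeMP_TRAP tamoxifen libraries 97.4% of members had at least 1 read. In the 5 second-set libraries 74.4% to 89.7% did, and 20 of the 39 members had reads in all 5, 17 in some and 2 (Srp54a and Srprb) in none. In the 3 control libraries of the same fraction 89.7% to 94.9% of members had a read, against 58.8% to 65.0% of the tested genes. The member genes and the tested genes were not matched for level.

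**Figure D2:**
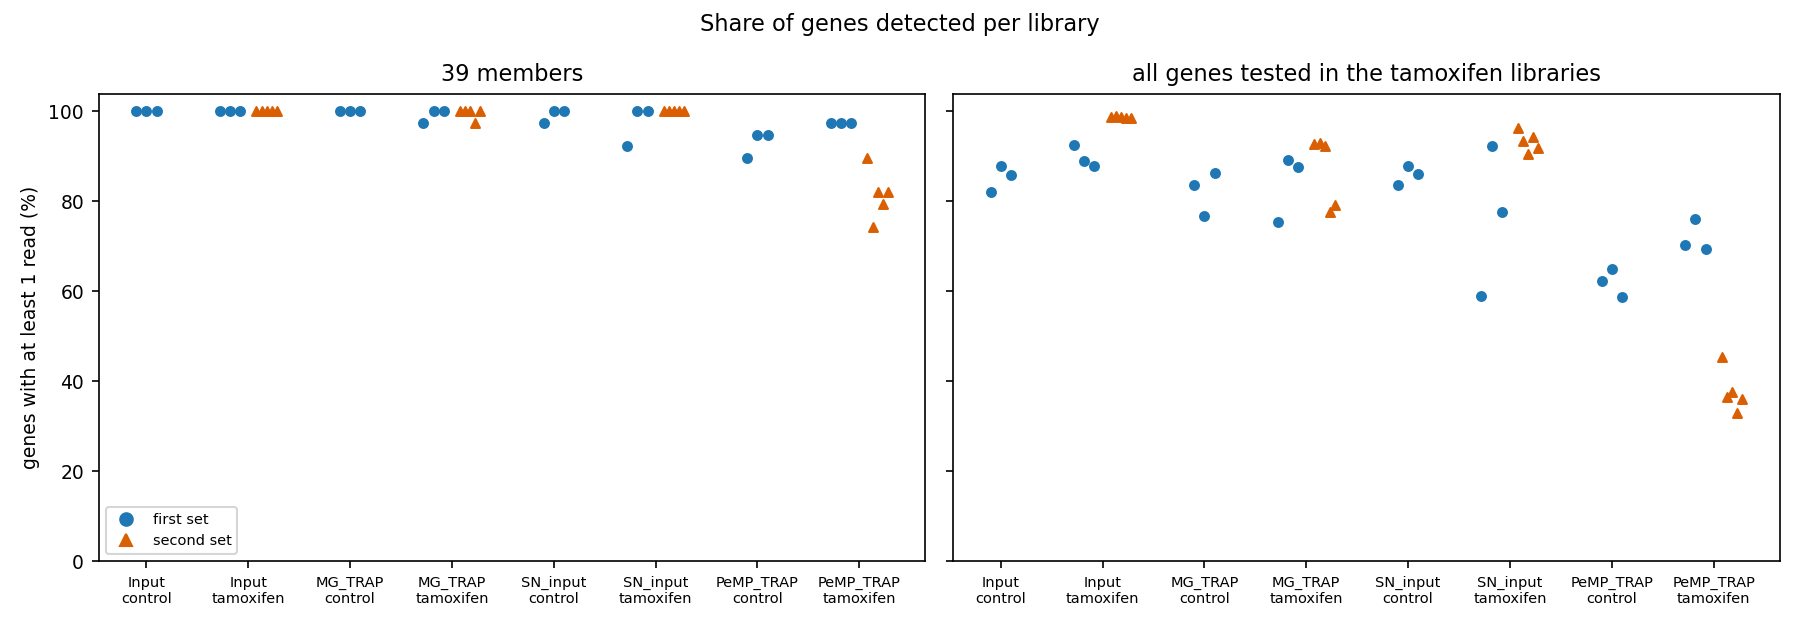
Percent of genes with at least 1 read in each library, for the 39 members (left) and the 14736 genes tested in the tamoxifen libraries (right), by fraction and treatment, with circles for the first set and triangles for the second. Second-set PeMP_TRAP libraries detected 74.4% to 89.7% of the members and 33.0% to 45.5% of the tested genes.

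The summed level of the members gives their share of the RNA. In the second set, where the sums varied less, the members took 0.417% to 0.458% of all assigned reads of the Input libraries and 0.378% to 0.434% of those of SN_input. Their share was 0.495% to 0.650% for MG_TRAP, and for PeMP_TRAP it was 0.326% to 0.545% (n = 5 each). As TMM-scaled CPM the sums were 2830 ± 85.9 in Input, 4169 ± 628 in MG_TRAP, 4513 ± 196 in SN_input and 5080 ± 740 in PeMP_TRAP (mean ± SD, n = 5 each). All 5 MG_TRAP sums lay above all 5 Input sums, while the PeMP_TRAP range of 3883 to 5821 overlapped both SN_input (4308 to 4760) and MG_TRAP (3416 to 4895). In the first set the tamoxifen sums were 4930 ± 2093 in Input, 8659 ± 1680 in MG_TRAP, 9503 ± 636 in SN_input and 14793 ± 6041 in PeMP_TRAP (n = 3 each), and PeMP_TRAP D alone reached 21768. As shares of the assigned reads the first-set means were 0.608% in Input, 0.808% in MG_TRAP, 0.486% in SN_input and 0.776% in PeMP_TRAP. So in both sets SN_input lay above Input and PeMP_TRAP above MG_TRAP as TMM-scaled sums, and below them as shares of the reads.

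**Figure D3:**
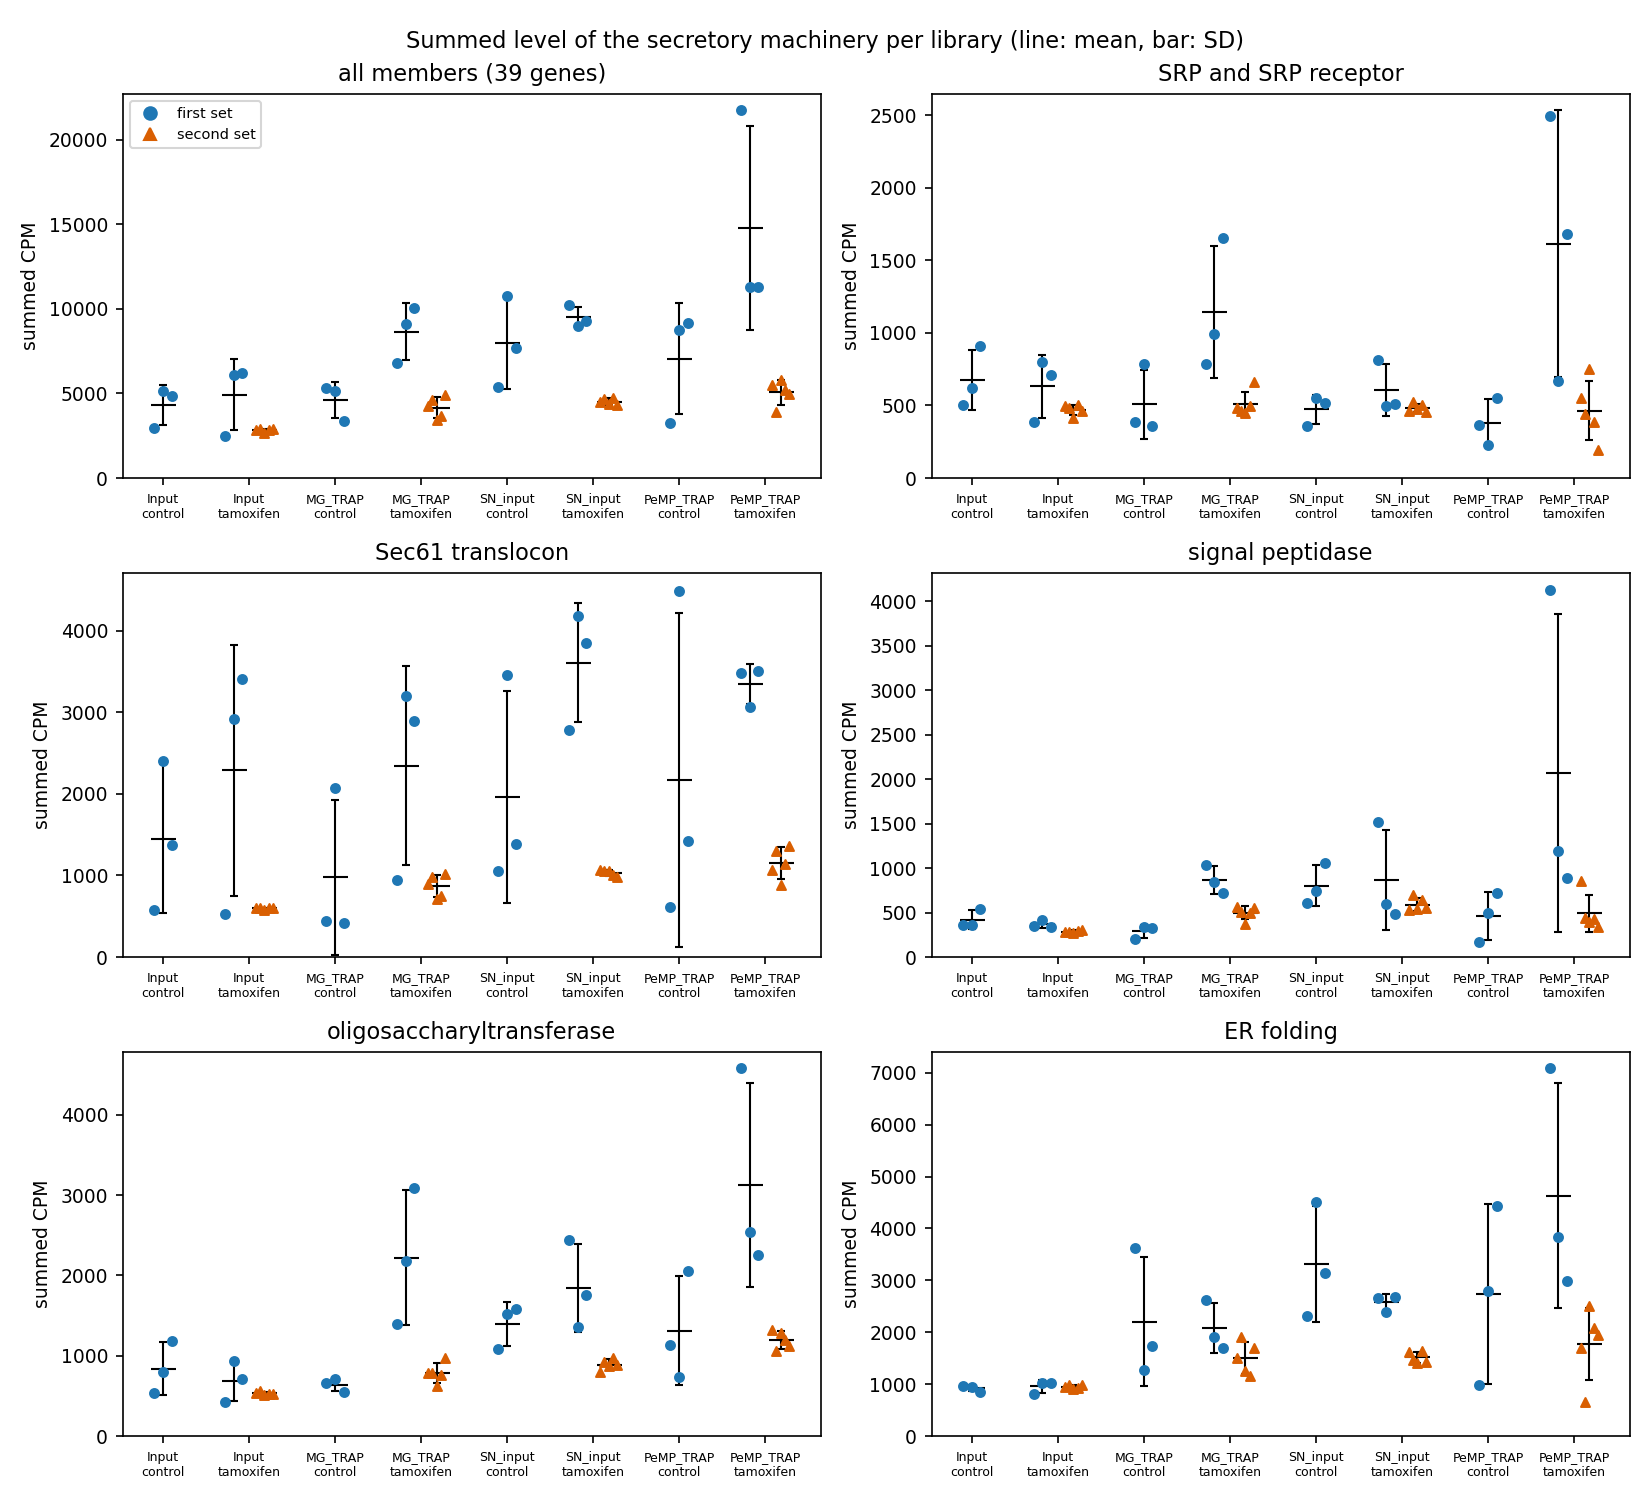
Summed TMM-scaled CPM of all members and of each role in every library, by fraction and treatment, with circles for the first set and triangles for the second; horizontal lines are means and vertical bars SD. First-set libraries spread more widely than second-set ones in the panel of all members, where PeMP_TRAP D reaches 21768.

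The design asks whether the RNA of this machinery is on microglial ribosomes at all, in the cell as a whole and in the synaptosome fraction. In the whole homogenate of tamoxifen mice 1 member, Tmem258, was higher in MG_TRAP than in Input, where 6.26% of all tested genes were called, 4.75% higher and 1.51% lower. That is 2.56% of the members. The relation turned with limma voom, which called 12 members (30.8%, all higher, against 23.8% of all genes), and with these 2 groups fitted alone, which called 22 (56.4%, all higher, against 23.6%). The members' median log2 fold change was 0.71, with 33 of 39 positive, against -0.11 over all genes tested. In the synaptosome fraction Hsp90b1 and Pdia6 were higher in PeMP_TRAP than in SN_input and Srp54a was lower, which is 3 of 39 (7.69%), where 31.5% of all tested genes were called, 6.24% higher and 25.3% lower. The members' median there was 0.37 and that of all genes -0.72. Of the members 5.13% were called higher in PeMP_TRAP than in SN_input, below the 6.24% of all tested genes. This relation also turned with the processing. The members' share called higher exceeded that of all genes with DESeq2, limma voom, a replicate block, the second set alone and without D or F. In the other settings it lay below. Between the immunoprecipitates, Hsp90b1, Ssr2, Sec11c and Ssr4 were higher in PeMP_TRAP than in MG_TRAP and Srp54a was lower. That is 5 of 39 (12.8%), where 23.8% of all tested genes were called, 3.07% higher and 20.7% lower, and the medians were 0.50 for the members and -0.52 for all genes. The inputs were compared as well, and Tmem258, Sec11c, Ssr4 and Hsp90b1 (10.3% of the members) were higher in SN_input than in Input, where 2.59% of all tested genes were called, 2.25% higher. Limma voom called 12 (30.8%, against 15.4%), the 2 groups fitted alone called 20 (51.3%, against 18.9%), and RLE factors or total counts called 0. The members' median was 0.97 and that of all genes 0.02. The median standard error of a member was 0.66 to 0.68 on the log2 scale in these 4 comparisons. The zero of the scale depended on the library scaling. With RLE factors the members' and all-gene medians were 0.14 and -0.65 for MG_TRAP against Input, 0.06 and -1.07 for PeMP_TRAP against SN_input, -0.00 and -1.07 for PeMP_TRAP against MG_TRAP, and 0.24 and -0.70 for SN_input against Input. With total counts the members' median turned to -0.29 for PeMP_TRAP against MG_TRAP (all genes -1.27) and to -0.08 for SN_input against Input (all genes -1.05). It also moved with single libraries. Without D the members' median was 0.00 for PeMP_TRAP against MG_TRAP (all genes -0.89) and 0.17 for PeMP_TRAP against SN_input (all genes -1.06). Without E these medians were 0.15 and 0.27, and leaving out another letter gave 0.33 to 0.60 and 0.40 to 0.56. With a replicate block they were 0.11 (all genes -1.84) and 0.08 (all genes -2.15). Under all 3 scalings of the 4 comparisons the members' median lay 0.79 to 1.13 above the median of all genes. A change of scaling shifts both medians by nearly the same amount, so this range is no test of the distance between them. With the replicate block that distance was larger in both PeMP_TRAP comparisons. Without D it was smaller for PeMP_TRAP against MG_TRAP and larger for PeMP_TRAP against SN_input. Members and tested genes were not matched for level.

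**Figure D4:**
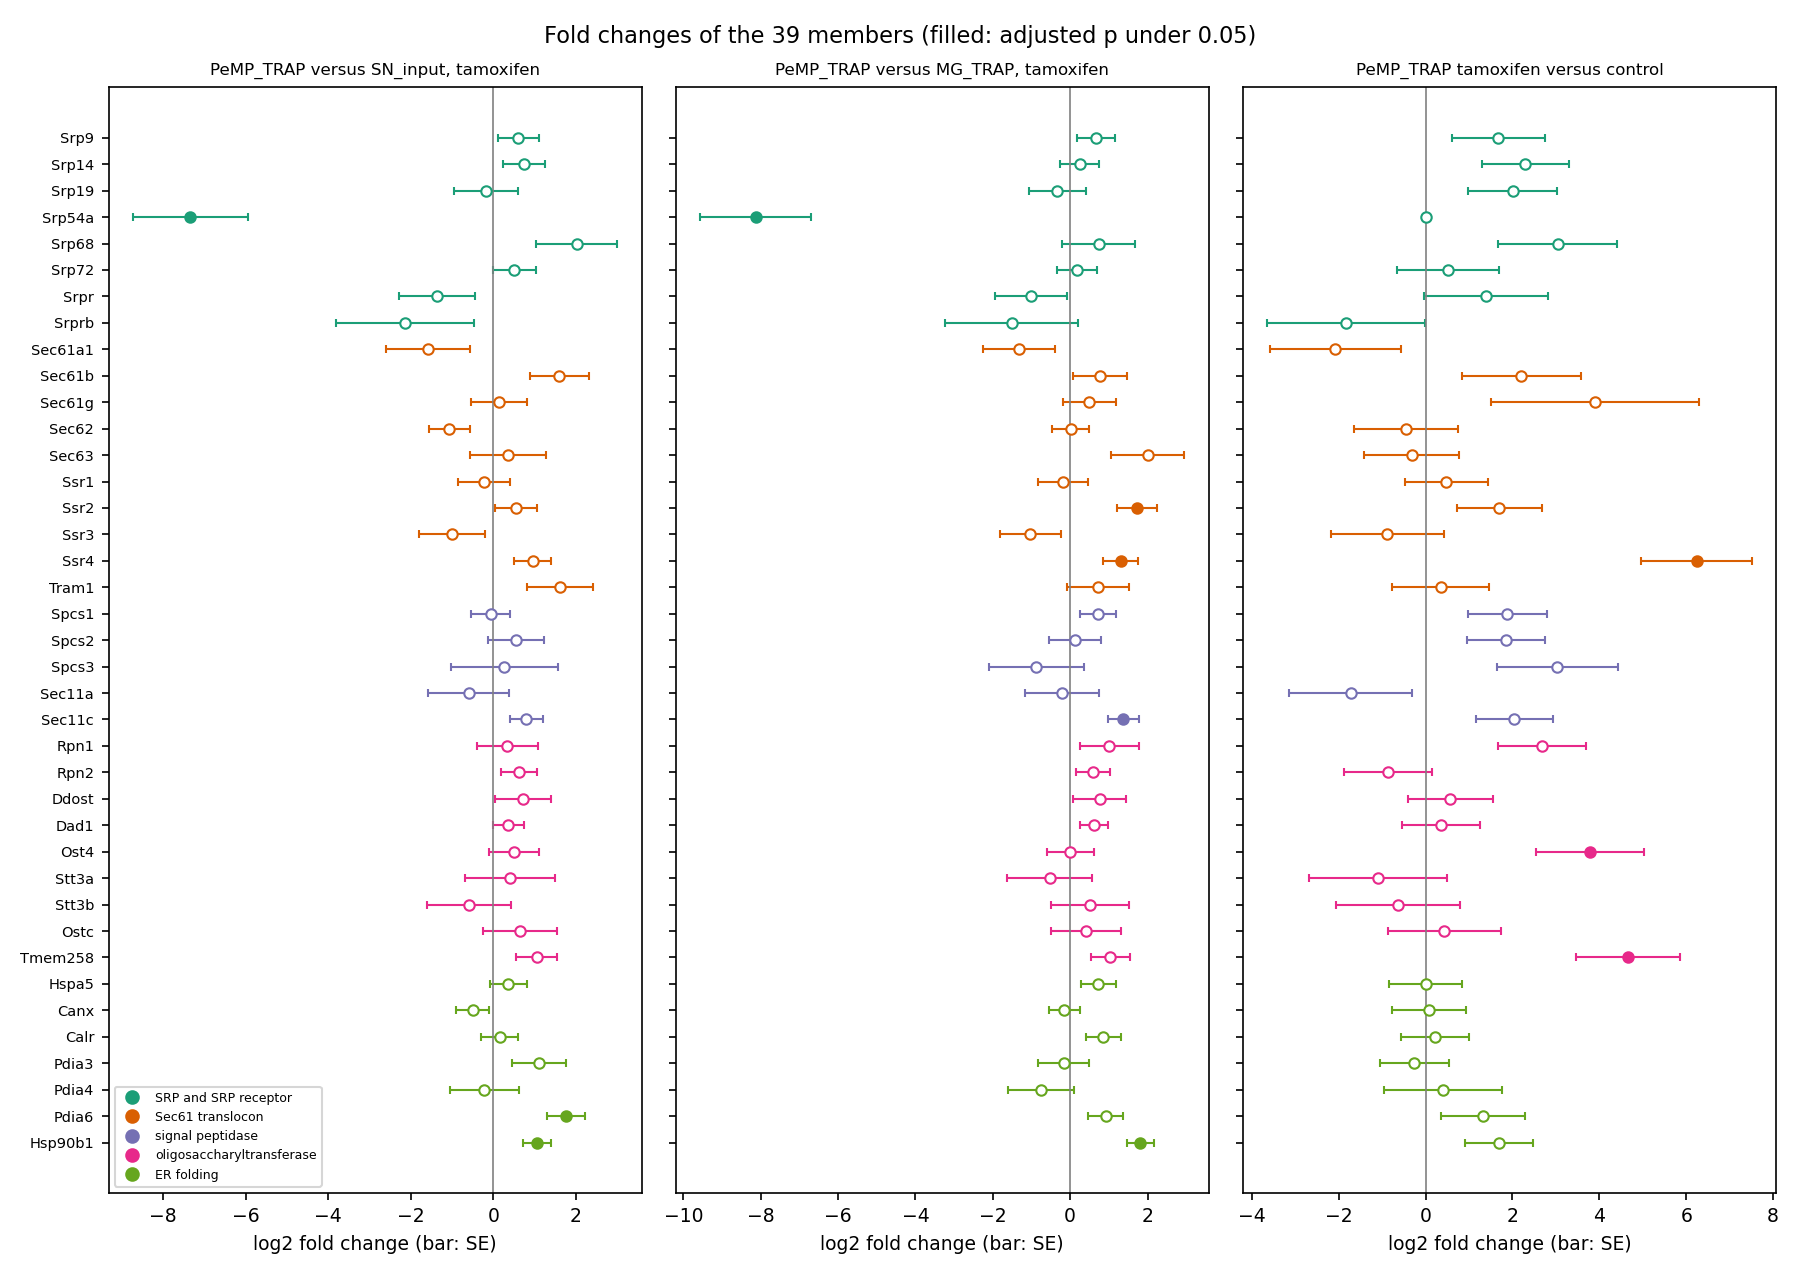
Log2 fold changes of the 39 members with standard errors, colored by role, for PeMP_TRAP against SN_input, PeMP_TRAP against MG_TRAP (both tamoxifen) and PeMP_TRAP tamoxifen against control; filled points have an adjusted p under 0.05. The Srp54a values rest on a count of 0 in PeMP_TRAP and depend on the prior count of the fit.

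Microglial markers moved with these comparisons, as did those of other cells. All 20 genes of a microglial list were higher in MG_TRAP than in Input and in PeMP_TRAP than in SN_input, and their summed level rose from 257 to 395 CPM in Input to 18143 to 62313 in MG_TRAP, and from 2985 to 10178 in SN_input to 26093 to 254391 in PeMP_TRAP (tamoxifen, n = 8 each). Plasma cells depend on the same ER machinery, and 5 of the 7 tested genes of a plasma cell list were higher in both comparisons and 2 in PeMP_TRAP against MG_TRAP. Their summed level was 227 to 4965 CPM in PeMP_TRAP, 496 to 2187 in MG_TRAP and 15.8 to 431 in SN_input, with Derl3 at 0 in all PeMP_TRAP tamoxifen libraries. In SN_input against Input 18 of 20 microglial, 4 of 10 astrocyte and 3 of 10 oligodendrocyte markers were higher (medians 3.71, 1.91 and 1.90 on the log2 scale), while 0 of 15 neuronal and 0 of 7 plasma cell markers were called. Summed astrocyte markers stood at 1815 to 2638 CPM in Input and 8918 to 16108 in SN_input, and oligodendrocyte markers at 3396 to 5443 and 8767 to 67554. In PeMP_TRAP against SN_input 7 of 10 astrocyte, 10 of 10 oligodendrocyte and 11 of 15 neuronal markers were lower. The part of these markers in the members' values was not tested. Of 8 border macrophage genes, 4 were higher in MG_TRAP than in Input, and 1 was higher and 2 lower in PeMP_TRAP against SN_input and likewise against MG_TRAP. They summed to 1.21 to 18.3 CPM in Input, 150 to 342 in MG_TRAP and 276 to 1704 in PeMP_TRAP, with Cd163, Clec12a and F13a1 at 0 in all PeMP_TRAP tamoxifen libraries. In bulk RNA, fewer cells of a type and less RNA per cell cannot be told apart.

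Among the SRP genes, Srp54a encodes a form of the subunit that binds the signal peptide. It had a count of 0 in all 11 PeMP_TRAP libraries. In the other tamoxifen fractions it was low, from 1.46 to 3.30 CPM in Input (median 2.35), 0 to 5.78 in MG_TRAP (median 2.3) and 0 to 2.25 in SN_input (median 1.30), so it was also at 0 in 1 MG_TRAP and 1 SN_input library. Srp54a was summed over the 8 tamoxifen libraries of each fraction on unscaled read totals, with a floor of 3 counts over the whole PeMP_TRAP group. It was at least 51.8-fold lower in PeMP_TRAP than in SN_input and at least 101-fold lower than in MG_TRAP. Such bounds cover counting error only. edgeR's quasi-likelihood test gave adjusted p = 0.000259 and 0.000224 for these comparisons, and 0.00348 for the difference of the 2 enrichments. Limma voom gave no call, and neither did the first set alone. With thinned libraries or the compared groups alone Srp54a was not tested. The mouse genome holds near-identical copies of this gene (Srp54b and Srp54c), so its counts are uncertain.

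Srp14 and Srp9, which form the part of SRP that slows elongation, had reads in all 8 tamoxifen libraries of PeMP_TRAP and in all 3 of the controls, where Srp14 had 5 to 394 counts and Srp9 24 to 305. In tamoxifen mice Srp14 ranged from 13.3 to 827 CPM in PeMP_TRAP (median 181), against 37.7 to 252 in SN_input (median 119) and 74.9 to 351 in MG_TRAP (median 182). The ranges overlapped, and the log2 fold changes were 0.74 and 0.24 with adjusted p of 0.280 and 0.796. Srp9 had medians of 136 CPM in PeMP_TRAP, 91.6 in SN_input and 97.3 in MG_TRAP, and did not pass either. Srp68, a protein of the SRP core, stood at 0 to 553 CPM in PeMP_TRAP with a median of 102, against 0 to 56.8 in SN_input (median 39.2), and was not called (2.02, adjusted p = 0.114). Srp19 and Srp72 also passed in neither comparison.

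Of the SRP receptor genes, Srprb, which encodes the membrane-anchored beta subunit, stood at 0.224, 33.6 and 32.6 CPM in first-set libraries D, E and F and at 0 in all 5 of the second set. In control PeMP_TRAP it averaged 73.6 CPM, with 1 of the 3 libraries at 0, against 47.4 in control SN_input. In SN_input of the second set it was at 30.9 to 61 CPM and in MG_TRAP at 6.55 to 72.3, so the groups did not overlap there. Second-set Srprb was pooled over 5 libraries on unscaled read totals and set against the floor of 3 counts. It was at least 1884-fold lower in PeMP_TRAP than in SN_input and at least 2092-fold lower than in MG_TRAP. These bounds cover counting error only. TMM factors (1.33 to 1.45 in MG_TRAP, 0.785 to 1.04 in PeMP_TRAP) would make the bound against MG_TRAP smaller. The difference between sets passed edgeR's quasi-likelihood test (adjusted p = 0.000727 against SN_input and 0.000579 against MG_TRAP), where 15.1% and 15.3% of all 17961 tested genes were called (0.189% and 0.423% higher, 14.9% and 14.8% lower). Over both sets together Srprb was not called (log2 fold change -2.14 against SN_input, adjusted p = 0.352). Srpr, the alpha subunit that meets SRP, had medians of 11.6 CPM in PeMP_TRAP, 42.8 in SN_input and 34.7 in MG_TRAP, was at 0 in 2 PeMP_TRAP libraries, and was not called.

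The Sec61 channel consists of 3 subunits. Its small beta subunit gene, Sec61b, had 17.8 to 428 CPM in PeMP_TRAP (median 234) against 0 to 115 in SN_input (median 81.9) and 32.5 to 553 in MG_TRAP (median 74.5). It did not pass the test (log2 fold change 1.59, adjusted p = 0.0841 against SN_input). Sec61a1, the pore-forming alpha subunit, went the other way without passing, with medians of 6.66 CPM in PeMP_TRAP, 30.6 in SN_input and 49.9 in MG_TRAP. Sec61g, the gamma subunit, had medians of 30.4, 44.3 and 17.9 in the same order. Genes of 1 channel thus had differences of opposite sign in PeMP_TRAP, none of which passed. Sec62 and Sec63 serve chains that enter after their synthesis. Sec62 was lower in PeMP_TRAP than in SN_input for all 8 letters, but with a log2 fold change of -1.07 it was not called (adjusted p = 0.0955), and its spread between first-set libraries is given above.

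The translocon-associated protein (TRAP complex, genes Ssr1 to Ssr4) sits beside the channel and helps some signal peptides to enter. Ssr2 stood at 35.8 to 647 CPM in PeMP_TRAP (median 187) and 33.5 to 107 in MG_TRAP (median 76.2). It was 3.30-fold higher in PeMP_TRAP than in MG_TRAP (log2 fold change 1.72 ± 0.52 SE, edgeR adjusted p = 0.0131) and higher in 7 of 8 letters, and the ranges overlapped. Within the sets the log2 fold change was 2.08 in the first (adjusted p = 0.467) and 1.29 in the second (adjusted p = 0.0465). Without replicate J the call was lost, and so it was with RLE factors (1.22, adjusted p = 0.0723) with total counts (0.98, adjusted p = 0.197) and with a replicate block (1.39, adjusted p = 0.0589). Ssr4 stood at 89.1 to 950 CPM in PeMP_TRAP (median 277) and 51.0 to 308 in MG_TRAP (median 115), 2.47-fold higher (log2 fold change 1.30 ± 0.45, adjusted p = 0.0288, 6 of 8 letters). It passed in neither set alone (1.55 and 0.93), and leaving out E, H, I or J ended the call, as did RLE factors (0.81, adjusted p = 0.161), total counts (0.60, adjusted p = 0.395) and a replicate block (1.22, adjusted p = 0.0639). Ssr2 and Ssr4 were above Input in SN_input too. Ssr4 was called there (1.62 ± 0.45, adjusted p = 0.0388), though without any 1 of the 8 letters, with RLE factors (0.90), total counts (0.74) or a replicate block (1.53, adjusted p = 0.0932) it was not, and Ssr2 was not called (1.52, adjusted p = 0.146) although its ranges in SN_input (72.0 to 595 CPM) and Input (45.9 to 70.6 CPM) did not overlap, as for 2.85% of all tested genes in that direction. Ssr1 and Ssr3 differed from MG_TRAP by -0.19 and -1.03 on the log2 scale, neither called. Tram1, which contacts the chain at the channel, was the member of largest log2 fold change in MG_TRAP against Input (2.06, adjusted p = 0.148), with 54.8 to 187 CPM in MG_TRAP all above the 13.4 to 31.3 of Input.

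Of the signal peptidase genes, Sec11c, a catalytic subunit, was called in PeMP_TRAP against MG_TRAP. It stood at 80.6 to 1363 CPM in PeMP_TRAP (median 279), 69.3 to 316 in MG_TRAP (median 97.9), 130 to 540 in SN_input (median 167) and 44.5 to 144 in Input (median 55.4). PeMP_TRAP exceeded MG_TRAP in 7 of 8 letters, with overlapping ranges, and the log2 fold change was 1.38 ± 0.40 (adjusted p = 0.00956), 1.55 in the first set and 1.07 in the second. SN_input exceeded Input in 8 of 8 letters (1.66 ± 0.40, adjusted p = 0.0126). Against SN_input the log2 fold change of PeMP_TRAP was 0.80 and not called (adjusted p = 0.126). Neither call of Sec11c remained with total counts, RLE factors, thinned libraries, the first set alone or without a filter on low counts. That of PeMP_TRAP against MG_TRAP was also lost with the compared groups alone (1.10, adjusted p = 0.191). That of SN_input against Input was also lost without G or H. Sec11a, the other catalytic subunit, had a log2 fold change of -0.21 against MG_TRAP and was at 0 in 2 PeMP_TRAP libraries. Spcs3, a subunit of the complex, differed between sets. It stood at 636, 13.2 and 26.1 CPM in first-set PeMP_TRAP D, E and F, at 14.1 in second-set G, 1.79 in J and 0 in H, I and K. The second set minus the first set was -6.14 ± 2.10 against SN_input (adjusted p = 0.0417), and this call was lost with RLE factors and with total counts. Spcs1 and Spcs2 had PeMP_TRAP medians of 165 and 167 CPM, near those of SN_input (191 and 158), and passed in no comparison of fractions.

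**Figure D5:**
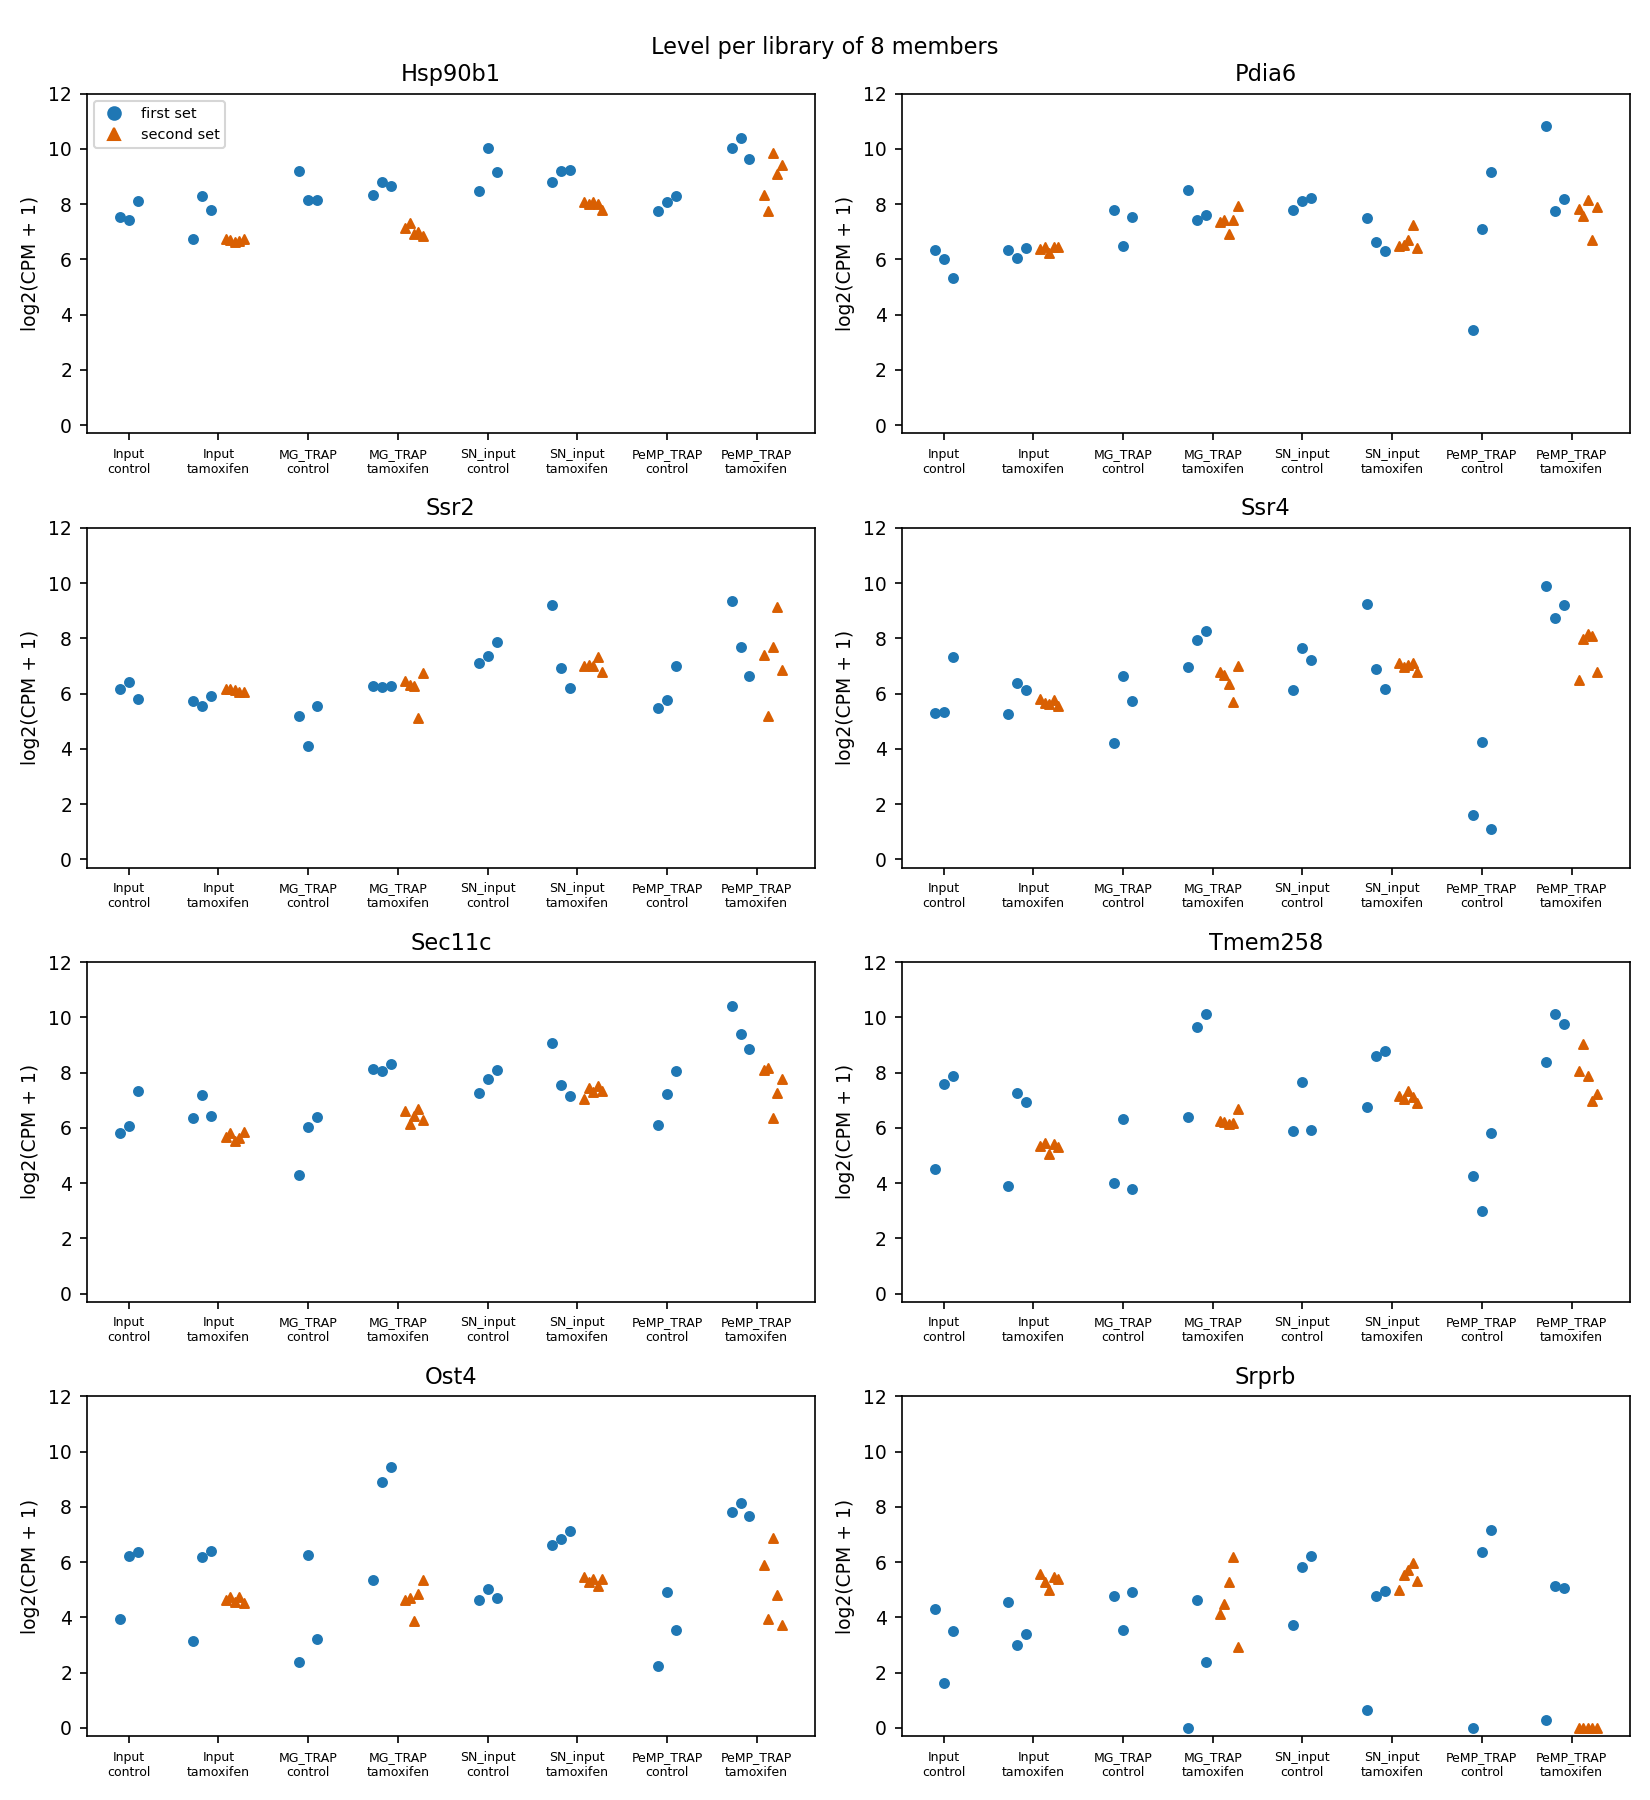
Level of 8 members in every library as log2(CPM + 1), by fraction and treatment, with circles for the first set and triangles for the second. Hsp90b1 in PeMP_TRAP tamoxifen lies between 216 and 1324 CPM, and Srprb is at 0 in all 5 second-set PeMP_TRAP libraries.

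The oligosaccharyltransferase transfers the glycan to asparagine. Tmem258, a small membrane subunit, was the member called in MG_TRAP against Input. It stood at 13.8 to 150 CPM in Input (median 40.7), 68.6 to 1119 in MG_TRAP (median 79.0), 108 to 440 in SN_input (median 139) and 125 to 1116 in PeMP_TRAP (median 299). MG_TRAP exceeded Input in 8 of 8 letters, by 3.63-fold (log2 fold change 1.86 ± 0.52, adjusted p = 0.0175). The log2 fold change was 2.85 in the first set and 1.05 in the second, and neither passed alone (adjusted p = 0.153 and 0.145). It was also lost without E or without F, the libraries of highest Tmem258, with RLE factors (1.29, adjusted p = 0.122) and with total counts (1.56, adjusted p = 0.0603). SN_input exceeded Input in 8 of 8 letters (1.84 ± 0.50, adjusted p = 0.0341), and leaving out any letter except D ended that call, as did RLE factors (1.19, adjusted p = 0.299) and total counts (0.82, adjusted p = 0.393). PeMP_TRAP exceeded SN_input by 1.05 and MG_TRAP by 1.04 on the log2 scale without passing (adjusted p = 0.101 and 0.141). Ost4, another small subunit, reached medians of 87.9 CPM in PeMP_TRAP, 41.8 in SN_input and 33.4 in MG_TRAP and was not called in these comparisons. The catalytic subunits were low in PeMP_TRAP. Stt3a, which acts at the translocon, had a median of 4.41 CPM there and 3 libraries at 0, against medians of 38.5 in SN_input and 56.0 in MG_TRAP. Stt3b, which glycosylates sites that were skipped, had medians of 10.4, 49.4 and 29.8 in the same order. Neither was called, with fitted log2 fold changes of 0.41 and -0.60 against SN_input, so for Stt3a the fitted value and the medians differ in sign. The structural subunits Rpn1, Rpn2, Ddost and Dad1 had PeMP_TRAP medians of 148, 155, 197 and 374 CPM, each above its SN_input median (142, 109, 108 and 255), and did not pass. Ostc was at 0 in 2 PeMP_TRAP libraries and had a median of 45.3 CPM.

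Hsp90b1, the ER-resident HSP90 chaperone that folds integrins and Toll-like receptors, had the smallest adjusted p of the folding genes in PeMP_TRAP against MG_TRAP. It stood at 96.7 to 309 CPM in Input (median 105), 115 to 446 in MG_TRAP (median 148), 221 to 604 in SN_input (median 267) and 216 to 1324 in PeMP_TRAP (median 734). In PeMP_TRAP the 3 first-set libraries had 1033, 1324 and 793 CPM and the second set had 323, 216, 918, 544 and 675 in G to K. PeMP_TRAP exceeded the MG_TRAP library of the same letter in 8 of 8 cases, although the ranges over all letters overlapped. The log2 fold change was 1.81 ± 0.34 (3.51-fold, adjusted p = 0.00031), 1.82 in the second set alone (adjusted p = 9.28e-05) and 1.47 in the first (adjusted p = 0.504). PeMP_TRAP exceeded SN_input in 7 of 8 letters, by 1.06 ± 0.34 on the log2 scale (adjusted p = 0.014). That call was lost without E, I or K and with RLE factors (0.74, adjusted p = 0.0754). It was also lost with the compared groups alone (0.73, adjusted p = 0.226) and with the first set alone (0.98, adjusted p = 0.470). Thinned libraries and a fit without a filter on low counts ended it too. SN_input exceeded Input by 1.38 ± 0.34 (adjusted p = 0.0135, 8 of 8 letters), a call lost with RLE factors (0.72, adjusted p = 0.378), with total counts (0.34, adjusted p = 0.595) and without G, H or I. Thinned libraries, the first set alone and a fit without a filter on low counts also ended the call of SN_input against Input. MG_TRAP exceeded Input by 0.63 without passing (adjusted p = 0.386).

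Pdia6, a protein disulfide isomerase, stood between 65.7 and 85.8 CPM in Input (median 83.6), between 120 and 363 in MG_TRAP (median 170), between 78.2 and 180 in SN_input (median 93.9) and between 103 and 1804 in PeMP_TRAP (median 231). PeMP_TRAP D, at 1804 CPM, lay far above the other 7 libraries, which reached at most 290. PeMP_TRAP exceeded SN_input in 7 of 8 letters, by 1.76 ± 0.46 on the log2 scale (3.38-fold, adjusted p = 0.00327). Without replicate D the log2 fold change was 1.18 (adjusted p = 0.00897), and it was 2.68 in the first set (adjusted p = 0.109) and 0.91 in the second (adjusted p = 0.0335). The call was lost with the compared groups alone in the fit (1.25, adjusted p = 0.131) and without a filter on low counts (1.63, adjusted p = 0.0596). Against MG_TRAP the difference was 0.92 and not called (adjusted p = 0.145). In MG_TRAP against Input the ranges of Pdia6 did not overlap, and neither did those of Pdia3 and Pdia4, but with log2 fold changes of 1.31, 1.90 and 1.59 none passed (adjusted p = 0.076, 0.0858 and 0.372). Of the 39 members 6 had MG_TRAP above Input without overlap, and of all tested genes 5.82% did. Pdia3, the isomerase that works with the lectin chaperones, had medians of 102 CPM in Input, 392 in MG_TRAP, 145 in SN_input and 324 in PeMP_TRAP, where 1 library was at 0.

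Hspa5, the ER Hsp70 (BiP), and the lectin chaperones Calr and Canx, which hold glycoproteins, were not called in any comparison of fractions. Hspa5 had medians of 140 CPM in Input, 227 in MG_TRAP, 226 in SN_input and 260 in PeMP_TRAP, where it ranged from 37.5 in J to 1781 in D. Calr had medians of 430 CPM in SN_input and 485 in PeMP_TRAP, with 5.32 in the lowest PeMP_TRAP library. Canx stood at 72.7 to 658 CPM in PeMP_TRAP (median 192) against 340 to 611 in SN_input (median 403), a log2 fold change of -0.50 (adjusted p = 0.363).

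Across roles, the difference between the PeMP_TRAP enrichment over SN_input and the MG_TRAP enrichment over Input was negative for 30 of 39 members, with a median of -0.57 against -0.79 for all genes (-0.29 against -0.48 with total counts). Srp54a was the only member called in that test (11.3% of all tested genes were, 0.312% higher and 11% lower). Of the microglial markers 18 of 20 were called lower in the same test, with a median of -3.18 and all 20 negative, and their part in the members' values was not tested. Hsp90b1 and Pdia6 had differences of 0.43 and 0.45 and were not called, so a larger enrichment in the processes than in the whole cell was not shown for either.

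Levels of different genes were compared per kilobase of exon (RPKM on the same scale). In PeMP_TRAP tamoxifen libraries Tmem258 (median 186), Sec61b (184), Hsp90b1 (182), Calr (168) and Srp14 (152) were highest (n = 8). The lowest were Srp54a and Srprb at 0, Stt3a at 0.49, Sec61a1 at 0.989 and Spcs3 at 2.16. These medians pool both sets, and the order differed between them. In the first set Sec62 (364.5) was second after Tmem258 (532), and the lowest were Srp54a at 0, Stt3a at 0.735, Sec61a1 at 0.968 and Sec11a at 1.11 (n = 3). In the second set Sec61b (149.9), Tmem258 (146) and Srp14 (141) were highest, and Srp54a, Srprb, Spcs3 and Stt3a had a median of 0 (n = 5). In SN_input the order began with Calr (149), Spcs1 (124), Srp14 (100) and Tmem258 (86.5), and in MG_TRAP with Srp14 (152), Pdia3 (125), Calr (91.3) and Spcs1 (89.0). The ranges of the highest 5 in PeMP_TRAP overlapped one another, and differences between genes were not tested. Exon length joins all annotated exons of a gene (1611 bases for Tmem258, 4032 for Hsp90b1), so the order also depends on the annotation.

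The other genes of the pathway were read from 7 lists of 130 genes, of which 129 were mapped. Their counts stand against the 6.24% of all tested genes higher and 25.3% lower in PeMP_TRAP than in SN_input, and 3.07% and 20.7% against MG_TRAP. ER chaperones and oxidoreductases outside the members had 3 of 28 genes higher and 3 lower in PeMP_TRAP than in SN_input, with P4hb (1.61, adjusted p = 0.0285), the beta subunit of prolyl hydroxylase, and Sdf2l1 (2.02, adjusted p = 0.0324), a BiP partner, among those higher. Txndc15 (-2.57) and Creld1 (-2.68) were among those lower. In glycan trimming and quality control, 2 of 12 were higher and 2 lower against SN_input, namely Edem1 (3.38, adjusted p = 0.00229) and Mlec (1.73, adjusted p = 0.00374) against Uggt2 and Edem3. Mlec, a lectin that binds early glycans, stood at 93.2 to 439 CPM in PeMP_TRAP and was also higher than in MG_TRAP (1.39, adjusted p = 0.0211), as was Uggt1 (2.29, adjusted p = 0.033), the folding sensor. Uggt2 and Edem3 were lower there too, so that 2 of 12 were higher and 2 lower against MG_TRAP. Of the genes that build the dolichol-linked glycan, 0 of 18 were higher and 5 (27.8%) were lower in each comparison, near these background shares, with Alg8 at 0 in all 8 PeMP_TRAP libraries. ER-associated degradation had 1 of 14 higher against SN_input (Derl2, 2.97). Sensors and factors of the unfolded protein response had 1 of 11 higher and 1 lower against SN_input. Trib3 was called higher there although its PeMP_TRAP median was 0, and Ppp1r15a, which reverses the translational arrest, was lower in both comparisons. The COPII coat, which carries cargo out of the ER, had 1 of 18 higher (Sec13, 2.28, adjusted p = 0.00161) and 1 lower (Sec23a) against SN_input.

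Rrbp1 and Krtcap2 were among the higher genes of other insertion routes and translocon partners, where 3 of 26 tested genes were higher and 3 lower against SN_input. Rrbp1, the ribosome-binding protein of the rough ER, stood at 530 to 7337 CPM in PeMP_TRAP (median 1189), 158 to 925 in SN_input (median 201) and 117 to 1739 in MG_TRAP (median 229). Its log2 fold changes were 2.65 ± 0.38 against SN_input (adjusted p = 7.38e-06) and 2.40 ± 0.38 against MG_TRAP (adjusted p = 6.63e-05). Krtcap2, an oligosaccharyltransferase subunit, was higher by 1.32 and 1.44 in these comparisons (adjusted p = 0.025 and 0.0204). Sec61a2 and Tram2, copies of the channel and of Tram1 that were low in all fractions, were lower in PeMP_TRAP in both.

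Control mice carry the same alleles, and 2 comparisons ask how much of the PeMP_TRAP signal depends on tamoxifen. In the first set, with 3 libraries against 3, Ssr4, Tmem258 and Ost4 were higher in PeMP_TRAP of tamoxifen mice than of control mice, which is 3 of 39 (7.69%), where 11.1% of all tested genes were called, 5.56% higher. The members' median was 0.52 against 0.00 over all genes, 0.16 against 0.00 with total counts, and 0.53 to 2.12 with left-out letters, highest without C (all genes 0.52). Ssr4 stood at 950, 421 and 582 CPM in D, E and F and at 2.03, 18 and 1.14 in A, B and C (log2 fold change 6.24 ± 1.27, adjusted p = 0.00611). Tmem258 stood at 335, 1116 and 857 CPM against 17.9, 6.93 and 55.4 (4.66 ± 1.20, adjusted p = 0.0148). Ost4 stood at 225, 281 and 200 CPM against 3.66, 29.1 and 10.6 (3.78 ± 1.24, adjusted p = 0.043). No tamoxifen library overlapped a control library for these genes, and 7 other members (Hsp90b1, Rpn1, Srp19, Sec61b, Sec61g, Spcs1 and Sec11c) were also without overlap but not called. Over all tested genes 12.2% had tamoxifen above control without overlap. Ssr4 kept its call whichever letter was left out, Tmem258 lost it without F (4.63, adjusted p = 0.0536) and Ost4 without A, C, E or F (adjusted p = 0.0888 to 0.126), and with the PeMP_TRAP libraries alone in the fit 0 members were. Microglial markers rose with tamoxifen in the same libraries (15 of 20 called), from a summed 1546 to 19253 CPM to 52259.5 to 254391, and endothelial markers summed to 766 to 2166 CPM in control against 35.8 to 1344, with 4 of 9 called lower. Of the other lists 3 of 10 oligodendrocyte, 2 of 10 astrocyte and 3 of 15 neuronal markers were lower. Their part in the members' difference was not tested. With A and D left out, an alternative added after their low Sec62 and Tmem258 had been seen, 4 members were called (10.3%, against 10.9% of all tested genes).

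In MG_TRAP no member was called between tamoxifen and control (3 at an unadjusted p under 0.05; edgeR called 0% of all tested genes), whereas limma voom with quality weights called 10 of 39 (25.6%, against 21.5% of all tested genes) and DESeq2 2 (5.13%, against 5.27%). Tmem258 (4.13, adjusted p = 0.161), Ost4 (3.68, adjusted p = 0.231) and Sec11c (2.18, adjusted p = 0.251) had the smallest p. The members' median was 0.90 against -0.14 over all genes, 1.23 against 0.12 with RLE factors and 0.59 against -0.48 with total counts. Tamoxifen lay above control without overlap for 11 members, and the other 28 overlapped. Of all tested genes 15.3% lay above and 13.3% below without overlap. In control mice no member was called between an immunoprecipitate and its input. MG_TRAP against Input gave 0 calls (1 at an unadjusted p under 0.05, with 0.0135% of all tested genes called), by limma voom and DESeq2 too. PeMP_TRAP against SN_input gave 0 calls (3 at an unadjusted p under 0.05, and 0% of all tested genes), while DESeq2 called 1 (2.56%, against 9.02% of all tested genes). In control MG_TRAP against Input the members' median was -0.13 and that of all genes 0.00. By role it was -0.56 for the oligosaccharyltransferase, -0.48 for SRP, -0.42 for the Sec61 channel, -0.09 for the signal peptidase and 1.30 for the folding genes. Hspa5, the member at an unadjusted p under 0.05, had 1342, 329 and 458 CPM in control MG_TRAP against 148, 248 and 153 in Input (2.08, adjusted p = 0.589). The PeMP_TRAP enrichment in tamoxifen minus that in control had a median of 0.58 against 0.24 for all genes (1.28 against 0.93 with total counts). It gave 0 member calls with edgeR (4 at an unadjusted p under 0.05, 1.24% of all tested genes called, 0.914% higher and 0.325% lower) and 1 with DESeq2 (2.56%, against 13.5% of all tested genes). Ssr4 came nearest (5.31 ± 1.52, adjusted p = 0.0621).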

How the data were processed

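RNA of 44 libraries was made with SMART-Seq v4 and NEBNext Ultra II, per the labels' protocols. The deposited files hold whole-number read counts per Ensembl gene, which the authors made from their reads. The submitters' processing notes name FastQC 0.11.7, Trimmomatic 0.38, STAR 2.7.0d, Bowtie2 2.3.5, HTSeq 0.9.1 and edgeR, and the genome build and annotation are not given in the sources used here. Lines that name no gene (27.0% to 93.4% of reads, depending on the library) and genes not in both sets (0.0232% to 0.795% of assigned reads) were left out. Symbols and exon lengths came from GENCODE mouse release 21 and promoter windows from RefSeq (GRCm38.p6). No pair of libraries held identical values.

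Differences were tested with edgeR 4.0.16 (quasi-likelihood, TMM, filterByExpr with a minimum count of 10, Benjamini-Hochberg adjustment over all genes, threshold 0.05) in R 4.3.3. Tamoxifen libraries were fitted by fraction with set as a term, first-set libraries by group, and set differences by fraction and set. The procedure was also run on simulated counts with 1 mean profile for all libraries, planted changes and no set effect. That run does not cover the set differences and uneven detection of these libraries. Alternatives used DESeq2 1.42.0, limma 3.58.1 (voom), other scalings, filters, thinned libraries, single sets, a replicate block and left-out replicates. All members were read in every comparison. Values per library are given for called members among the 3 largest and 3 lowest changes and for at least 2 members of each role, and the companion genes named are the 2 called genes of smallest p per list and direction, except 1 that is not reported here. The members and lists were chosen with earlier results of these data known.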

Additional observations from a re-analysis of the deposited data

Results flagged for a closer look

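Of 63 groups of libraries tested for a library far from the rest, 15 were flagged. Chance flags about 1 in 20 independent groups, but these groups share libraries, hold single genes beside the sums they belong to, and pool 2 sets of different level, so their number is not read against that rate. Library D was the highest in 12 of them. In PeMP_TRAP tamoxifen, D stood at 21768 summed CPM over all members (next 11312), 4581 over the oligosaccharyltransferase (next 2542) and 4128 over the signal peptidase (next 1197). For single genes in the same fraction D stood at 1804 CPM for Pdia6 (next 290), 1363 for Sec11c (next 669) and 636 for Spcs3 (next 26.1). In SN_input, D stood at 813 summed CPM over the SRP genes (next 523), 1516 over the signal peptidase (next 693), 540 for Sec11c (next 188), 595 for Ssr2 (next 157) and 596 for Ssr4 (next 137). In MG_TRAP, D was highest for Spcs3 at 182 CPM (next 81.4). The other 3 were the SRP sum of MG_TRAP F at 1656 (next 995), Sec11c in Input E at 144 (next 85.2) and Ssr2 in MG_TRAP J, the lowest at 33.5 (next 74.1).

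Among differences between effects, that of Srp54a between the PeMP_TRAP and MG_TRAP enrichments was -7.34 on the log2 scale (edgeR adjusted p = 0.00348). Between the sets, second minus first, Srprb differed by -12.77 against SN_input (adjusted p = 0.000727) and by -13.23 against MG_TRAP (adjusted p = 0.000579), and Spcs3 by -6.14 against SN_input (adjusted p = 0.0417). Counts of 0 stand behind the Srp54a and Srprb values, whose fitted size depends on the prior count.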

How the results depend on the processing

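The counts of called members moved with the processing, and no member's called difference changed sign under the alternatives run. The cause of these moves was not tested. Percentages in brackets are the share of all tested genes called under the same setting. For MG_TRAP against Input (1 member called), RLE factors, total counts and either set alone gave 0, DESeq2 2 (9.36%), thinned libraries 6 (9.98%), limma voom 12 (23.8%) and the compared groups alone 22 (23.6%), against 6.26% in the reported fit, and leaving out a replicate gave 0 (E or F) to 2 (D or I). For PeMP_TRAP against SN_input (3, of which 2 higher, against 31.5%), DESeq2 gave 13 (40.1%; 12 higher, where 13.2% of all genes were), the first set alone 0 (2.87%), the second 6 (2 higher and 4 lower, 43.6%), the compared groups alone 0 (11.9%), RLE factors 1 higher and 2 lower (33.7%), no filter 0 higher and 2 lower (22.1%), and left-out replicates 2 to 7 (7 without D). For PeMP_TRAP against MG_TRAP (5, against 23.8%), RLE factors (27.1%), total counts (27.2%), no filter (19%) and limma voom (1.29%) gave 2, thinned libraries 1 (20.5%), DESeq2 12 (32.8%; 11 higher, where 9.34% were), the first set alone 0 (0%), the second 7 (4 higher and 3 lower, 42.6%), the compared groups alone 1 (6.7%), and left-out replicates 3 (without J) to 7. For SN_input against Input (4, against 2.59%), RLE factors (1.4%), total counts (1.5%), no filter (1.64%), thinned libraries (3.31%) and the first set alone (0.0463%) gave 0, limma voom 12 (15.4%), the compared groups alone 20 (18.9%), and left-out replicates 0 (without G) to 3, with 1 without H or I and 2 without E, F, J or K. For the difference of enrichments (1, against 11.3%), thinned libraries (6.6%), limma voom (0.862%) and the first set alone (0%) gave 0 and the second set 2 (29.5%). For tamoxifen against control, MG_TRAP (0) gave 10 with limma voom (21.5%) and 2 with DESeq2 (5.27%), and PeMP_TRAP (3, against 11.1%) gave 0 with limma voom (0.372%), 12 with DESeq2 (29.1%), 0 with the compared groups alone (0.353%) and 1 (without F, 2.28%) to 4 with left-out replicates. In control PeMP_TRAP against SN_input (0) DESeq2 gave 1 (9.02%). For the enrichment in tamoxifen minus control (0, against 1.24%), total counts (2.08%), no filter (2%), thinned libraries (2.48%) and DESeq2 (13.5%) gave 1, and left-out replicates 0 to 1 (without B, 1.23%). For the set differences, RLE factors (12.8%), total counts (15.9%) and DESeq2 (22.6%) gave 1 against SN_input (2, against 15.1%), and against MG_TRAP (1, against 15.3%) no filter (8.14%) and thinned libraries (12.6%) gave 2 and limma voom 6 (9.82%). Srp54a has no value in thinned libraries. Over all genes, the calls for MG_TRAP against Input split into 700 higher and 223 lower with TMM, 568 and 395 with RLE factors and 611 and 311 with total counts, and for SN_input against Input into 332 and 50, 133 and 73, and 88 and 133.

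Libraries of the same letter were not treated as pairs. Their deviations correlated by 0.0174 to 0.224 between MG_TRAP and Input, where 7 of 8 libraries correlated best with their own letter, and by -0.017 to 0.0827 between PeMP_TRAP and SN_input, where 2 of 8 did. For PeMP_TRAP and MG_TRAP 5 of 8 did (-0.00699 to 0.117), and for SN_input and Input 4 of 8 (-0.00841 to 0.0715). With a replicate block, 5 members were called in PeMP_TRAP against SN_input (34%), 4 against MG_TRAP (22.8%), 3 in SN_input against Input (2.77%) and 1 in MG_TRAP against Input (7.07%), and Ssr2 (adjusted p = 0.0589) and Ssr4 (0.0639) against MG_TRAP and Ssr4 in SN_input against Input (0.0932) were no longer called. With 740679 reads in the smallest library, low members such as Srp54a are near the counting floor.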
